A study of Mus musculus with 13 samples.

Results

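The 48 genes described here serve the G2 phase and mitosis, the part of the cell cycle in which replicated chromosomes are condensed, attached to the spindle and divided. They were chosen by symbol from a list of mitotic kinases and their partners, kinetochore, condensin, kinesin and cytokinesis genes, and all 48 had a row among the 56941 gene IDs of the count table. RNA was sequenced from mouse Th17 cells, a CD4 helper T cell type that secretes IL-17A and IL-17F, grown from naive splenic CD4 T cells for 72 hours under Th17-polarizing conditions. One group of 3 libraries was labelled Chaf1bWT (WT). The other 3 were labelled Chaf1bfl/fl;Il17fCre+ (KO), a genotype in which a Cre recombinase driven by Il17f is meant to delete Chaf1b, a subunit of the histone chaperone CAF-1. Deletion can therefore begin only in cells that have switched on Il17f, and whether WT cells carry the Cre is not in their label. Each library is labelled a biological replicate, but the labels do not say that each came from its own animal, so the spread behind each p-value may be technical.

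Entry into mitosis is driven by the kinase Cdk1 bound to cyclin B, which Cdc25 phosphatases switch on. Polo-like and Aurora kinases then build the spindle, the kinetochore ties each centromere to microtubules, and the spindle checkpoint holds the anaphase-promoting complex back until every chromosome is attached. Most of these genes are transcribed late in the cycle from promoters that combine CCAAT boxes, bound by NF-Y, with the cell cycle homology region (CHR), whose common forms are TTTGAA and TTCGAA and which the MuvB complexes bind. In activated T cells their RNA is a common measure of how many cells are cycling.

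The promoters of the genes described here held both motifs in a larger share than promoters at large. RefSeq promoter windows of GRCm38.p6, each running from 250 bases before to 50 after the transcription start in 300 bases, were found for 39 of the 48 genes, in 41 windows. CCAAT on either strand stood in 31 of these windows (75.6%), against 37.8% of 12738 windows of genes tested in this dataset. TTTGAA or TTCGAA on either strand stood in 32 windows (78.0%), against 14% of those windows. Both were present in 29 windows (70.7%), against 5.8% of windows of tested genes, 7.5% of all 32851 windows and 11.4% of the 44 windows of 37 DNA replication genes. Matches of the 2 motifs can overlap by a letter at their ends, and a match is a description of the sequence, not a measured binding site.

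The first 3 promoters below belong to the genes with the highest mean CPM (counts scaled to a common library size) among those holding both motifs, and show how the motifs are arranged. Cdc25b and Ncaph were added after their values were seen, because they are the 2 genes that passed the test. Capitals mark CCAAT or its reverse complement ATTGG, and TTTGAA, its reverse complement TTCAAA, or TTCGAA. Sequences are on the strand of the gene.
Top2a, chr11:99024140-99024439, minus strand: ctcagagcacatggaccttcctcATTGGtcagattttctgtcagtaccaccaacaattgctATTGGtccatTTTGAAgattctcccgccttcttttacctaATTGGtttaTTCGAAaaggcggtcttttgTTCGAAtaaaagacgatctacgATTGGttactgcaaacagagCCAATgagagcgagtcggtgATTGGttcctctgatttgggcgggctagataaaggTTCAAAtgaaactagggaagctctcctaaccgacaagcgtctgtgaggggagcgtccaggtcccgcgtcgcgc
Mki67, chr7:135716330-135716629, minus strand: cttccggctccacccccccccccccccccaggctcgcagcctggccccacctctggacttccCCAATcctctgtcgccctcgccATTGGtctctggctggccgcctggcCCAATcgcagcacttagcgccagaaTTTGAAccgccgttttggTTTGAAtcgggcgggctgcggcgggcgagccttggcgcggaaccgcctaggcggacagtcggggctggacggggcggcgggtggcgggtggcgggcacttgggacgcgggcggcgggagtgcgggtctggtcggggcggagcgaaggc
Ncapd2, chr6:125191537-125191836, minus strand: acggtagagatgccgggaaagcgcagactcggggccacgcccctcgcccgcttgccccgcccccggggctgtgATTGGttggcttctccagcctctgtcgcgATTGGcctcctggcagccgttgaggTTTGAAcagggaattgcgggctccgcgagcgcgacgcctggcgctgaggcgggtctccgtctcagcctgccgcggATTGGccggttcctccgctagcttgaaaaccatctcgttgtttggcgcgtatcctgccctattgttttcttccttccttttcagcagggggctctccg
Cdc25b, chr2:131186698-131186997, plus strand: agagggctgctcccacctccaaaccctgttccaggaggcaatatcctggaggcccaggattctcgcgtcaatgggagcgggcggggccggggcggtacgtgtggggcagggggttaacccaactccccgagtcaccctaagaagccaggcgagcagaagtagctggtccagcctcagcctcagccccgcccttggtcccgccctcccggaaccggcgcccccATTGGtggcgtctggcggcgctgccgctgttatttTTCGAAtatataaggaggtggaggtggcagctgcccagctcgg
Ncaph, chr2:127133905-127134204, minus strand: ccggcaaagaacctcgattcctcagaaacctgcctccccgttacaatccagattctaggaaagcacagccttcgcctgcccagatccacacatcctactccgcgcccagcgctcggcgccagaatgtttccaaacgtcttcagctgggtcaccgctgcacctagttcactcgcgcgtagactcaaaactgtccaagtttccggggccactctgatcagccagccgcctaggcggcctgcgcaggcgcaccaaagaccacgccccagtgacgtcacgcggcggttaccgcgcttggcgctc

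Top2a carried 6 CCAAT matches and 4 CHR matches, the TTTGAA beginning 179 bases before the start and the TTCGAA matches 140 and 120 bases before it. In Mki67 the TTTGAA matches began 116 and 98 bases before the start. Ncapd2 held 3 ATTGG matches and TTTGAA 123 bases before the start. In Cdc25b an ATTGG began 28 bases before the start and a TTCGAA 7 bases after it. Ncaph held neither motif within its window, which says only that these letters are not there.

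Before the mitotic genes, the libraries themselves were read. Totals ran from 35708879 to 45232055 counts. Chaf1b had 12 ± 0.99 CPM in WT against 14.9 ± 1.38 in KO (mean ± SD, n = 3). Its KO level was thus not below that of WT (0.31 ± 0.11 on the log2 scale, adjusted p = 0.13 in edgeR's test). Exon counts of the whole gene cannot check the deletion, since the deleted part is not given in the sources used here. Directions below therefore rest on the labels. Chaf1a, the gene of another CAF-1 subunit, was called higher in KO (0.32 ± 0.06, adjusted p = 0.0107 in edgeR's test). That call held in 2 of the 6 fits that left out a library. The Th17 markers Il17a, Il17f, Il23r, Ccr6 and Cd4 were counted in every library. Il17a was at 104, 52.4 and 43.1 CPM in WT, against 8.6, 8.44 and 9.89 in KO (-2.89 ± 0.39, adjusted p = 0.0181 in edgeR's test). Il17f was at 64.9, 33.5 and 25.8 CPM in WT, against 5.33, 6.45 and 5.7 in KO (-2.83 ± 0.39, adjusted p = 0.0135). Il23r, Ccr6 and Cd4 lay below WT in every KO library without passing (adjusted p = 0.0771, 0.0622 and 0.0504). Of 5 gamma delta T cell markers 4 were called higher in KO, with sums of 51.5 to 63.0 CPM in WT and 95.2 to 99.4 in KO. The CD8 T cell pair gave 14.2 to 16.1 and 12.3 to 16.3 CPM. B cell markers ran from 2.65 to 4.68 CPM in WT and 5.17 to 5.68 in KO, myeloid markers from 1.41 to 2.23 and 2.32 to 2.61, and NK cell markers from 0.31 to 1.21 and 0.135 to 0.28. Of the 4 NK markers Ncr1, Klrb1c and Klra8 had no counts in any library, as had S100a8 of the 6 myeloid markers. The part of these cell types in the results below was not tested. In bulk RNA fewer cells of a type and less RNA per cell cannot be told apart. The number of calls depended on single libraries: 938 genes passed with all 6, 2961 without WT replicate 1, and between 295 and 366 when WT replicate 2 or any KO replicate was left out.

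Mitotic genes differed little between the libraries labelled WT and KO. All 48 genes passed the filter on low counts, with between 450 and 13945 counts in every library and mean levels from 13.5 to 308 CPM. By edgeR's quasi-likelihood test, with p-values adjusted after Benjamini-Hochberg over all 14681 tested genes, 2 of the 48 passed an adjusted p of 0.05, against 6.39% of all tested genes. Cdc25b was lower in KO (2.08% of the 48, against 2.47% of tested genes called lower). Ncaph was higher (2.08% of the 48, against 3.92% called higher). Neither share exceeded that of all tested genes. The median log2 fold change of the 48 genes was 0.09, against -0.01 over all tested genes. Fitted values were above 0 for 38 of the 48 (79.2%, against 48.7% of all tested genes) and below for 10. At an unadjusted p under 0.05 there were 18 of 48 genes, a larger share than the 21.1% of all tested genes.

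The 95% intervals of all 48 genes lay inside a 1.5-fold change in either direction. Their median half-width was 0.17 on the log2 scale, against 0.24 over all tested genes. Some were wider, such as those of Smc4 (-0.15 to 0.38) and Ttk (0.01 to 0.52). An interval inside 1.5-fold was also found for 95.9% of the 8022 tested genes at or above the mean level of the lowest of the 48. The fitted values ran from -0.38 for Cdc25b to 0.33 for Kif4.

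**Figure D1:**
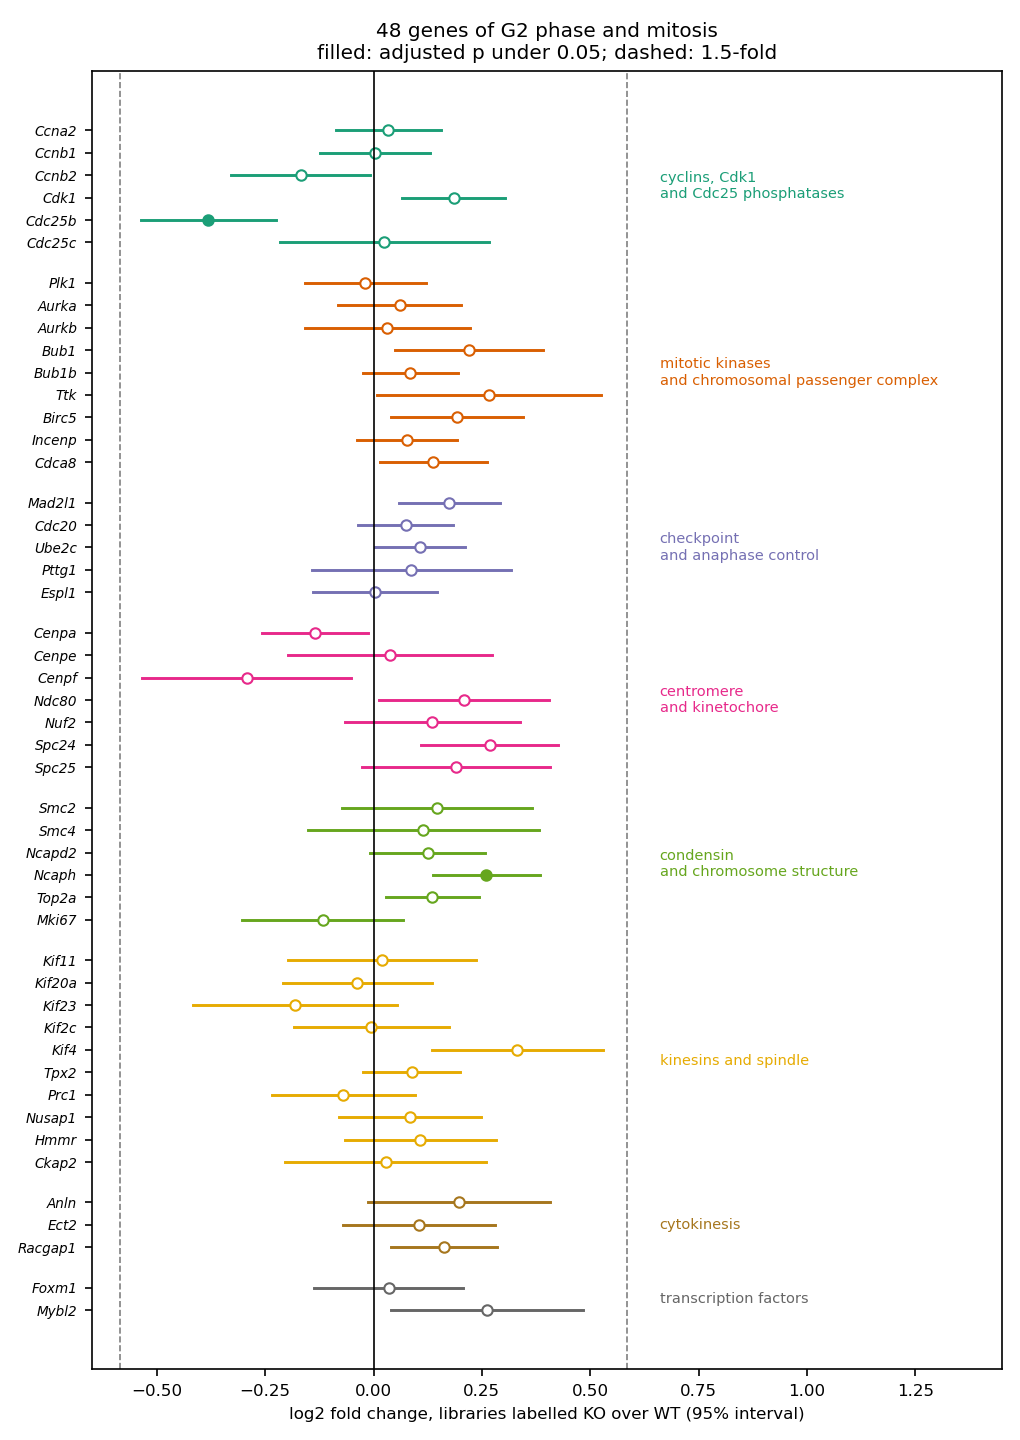
The log2 fold change of each of the 48 genes (libraries labelled KO over WT, n = 3 each) on the horizontal axis, with its 95% interval, coloured by role. Cdc25b and Ncaph, the filled points, had an adjusted p under 0.05, and every interval lies between the dashed lines at 1.5-fold.

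Among the genes that switch on Cdk1, Cdc25b was the one called lower. Cdc25b (ENSMUSG00000027330.17) encodes the phosphatase that starts Cdk1 activation at the centrosome. Its WT libraries had 54.6, 49.9 and 47.2 CPM and its KO libraries 37.9, 38.2 and 40.4 CPM, from 2240, 1915 and 2147 counts and 1330, 1456 and 1487 counts. Every KO library lay below every WT library. The KO values were the more closely grouped, as they were for 65.8% of all tested genes by the SD of log2 CPM. The level was 50.6 ± 3.76 CPM in WT, against 38.8 ± 1.37 CPM in KO (SD, n = 3), a log2 fold change of -0.38 ± 0.07 (SE), adjusted p = 0.00951 in edgeR's test. It no longer passed when WT replicate 2 (adjusted p = 0.05, just above the threshold), KO replicate 1 (0.0731) or KO replicate 2 (0.0637) was left out, with fitted values of -0.39, -0.37 and -0.37.

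The other genes of that group did not follow Cdc25b. Cdc25c, a related phosphatase, was at 13.3 ± 0.317 and 13.6 ± 1.75 CPM, with groups that overlapped. Ccnb1, which encodes the main mitotic cyclin, was at 105, 115 and 119 CPM in WT and 112, 117 and 110 in KO. All KO values lay within the WT range, and the log2 fold change of 0.00 had a 95% interval from -0.12 to 0.13. Ccna2, the cyclin of S and G2 phase, was at 71.5 ± 0.709 and 73.2 ± 3.25 CPM (95% interval from -0.09 to 0.16). The kinase gene Cdk1 was at 60.9, 59.4 and 62.5 CPM in WT and 68.3, 69.8 and 69.7 in KO. Here every KO library was above every WT library, yet the difference of 0.19 ± 0.05 did not pass (adjusted p = 0.0692 in edgeR's test). Ccnb2, the second cyclin B gene, leaned the other way, at 35.5 ± 2.02 and 31.6 ± 1.2 CPM without overlap (-0.17 ± 0.07, adjusted p = 0.211).

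None of the 9 genes of mitotic kinases and the chromosomal passenger complex passed. Plk1, which triggers mitotic entry and spindle assembly, was at 58.2, 60.0 and 53.8 CPM in WT and 58.3, 57.4 and 54.0 in KO. All KO values lay within the WT range, and the 95% interval ran from -0.16 to 0.12. The Aurora kinases were as close, at 64.0 ± 3.30 and 66.7 ± 3.82 CPM for Aurka, the spindle pole kinase, and 46.5 ± 5.29 and 47.6 ± 3.29 CPM for Aurkb, the kinase of the passenger complex. The partners of Aurkb in that complex are Incenp, Birc5 and Cdca8, which encode its scaffold, survivin and borealin. Incenp was at 110 ± 3.49 and 116 ± 4.59 CPM with overlapping groups. Birc5 (42.2 ± 2.86 and 48.2 ± 1.57 CPM, adjusted p = 0.134) and Cdca8 (76.2 ± 1.27 and 83.8 ± 4.27 CPM, adjusted p = 0.187) had every KO library above every WT library. Checkpoint kinase genes had positive fitted values that did not pass, with 0.22 ± 0.08 for Bub1, 0.08 ± 0.05 for Bub1b and 0.27 ± 0.12 for Ttk (Mps1), whose adjusted p-values were 0.126, 0.368 and 0.222.

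The 5 genes of checkpoint and anaphase control had fitted values from 0.00 to 0.17, none past the threshold. Mad2l1, the checkpoint protein that holds Cdc20, was at 63.5, 62.8 and 64.6 CPM in WT and 70.4, 73.2 and 71.8 in KO. The groups did not overlap, and the difference was 0.17 ± 0.05 (adjusted p = 0.0786 in edgeR's test). Ube2c, the ubiquitin-conjugating enzyme of the anaphase-promoting complex, was at 115 ± 2.28 and 124 ± 1.82 CPM, also without overlap (0.11 ± 0.05, adjusted p = 0.219). Cdc20, the activator of that complex, was at 167 ± 6.51 and 176 ± 5.05 CPM, and its groups overlapped. Securin (Pttg1, 14.3 ± 1.12 and 15.2 ± 1.29 CPM) and separase (Espl1, 48.3 ± 3.06 and 48.4 ± 0.451 CPM), the inhibitor and the enzyme that cuts cohesin, overlapped as well.

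Centromere and kinetochore genes pointed in 2 directions without any of the 7 passing. The 4 genes of the Ndc80 complex, which grips the microtubule, all had fitted values above 0, from 0.13 to 0.27. Spc24 came closest to the threshold among those of the 48 that did not pass, at 29.2, 29.9 and 26.9 CPM in WT and 34.9, 35.1 and 33.5 in KO. The groups were apart, with a log2 fold change of 0.27 ± 0.07 (adjusted p = 0.0507 in edgeR's test). Its partners Ndc80 (30.4 ± 3.59 and 35.2 ± 1.42 CPM), Nuf2 (24.1 ± 2.43 and 26.4 ± 1.56 CPM) and Spc25 (16.2 ± 1.36 and 18.5 ± 1.39 CPM) overlapped between groups. The centromeric histone H3 variant gene Cenpa was at 143, 137 and 126 CPM in WT and 126, 124 and 121 in KO. Its highest KO value lay just under its lowest WT value, and the difference of -0.13 ± 0.06 did not pass (adjusted p = 0.191). Cenpf, a large protein of the outer kinetochore, was at 23.1, 27 and 32.1 CPM in WT and 22.8, 22 and 22.2 in KO. The WT libraries were widely spread and the KO libraries tightly grouped below them (-0.29 ± 0.11, adjusted p = 0.148). The kinetochore motor gene Cenpe was at 51.0 ± 8.77 and 52.4 ± 1.14 CPM, with overlapping groups.

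Ncaph was the single gene called higher. It encodes the kleisin subunit that closes the ring of condensin I, the complex that compacts mitotic chromosomes. Ncaph (ENSMUSG00000034906.16) had 47.5, 46.6 and 47.6 CPM in the WT libraries, against 56.3, 57.6 and 55.7 CPM in the KO libraries, from 1950, 1787 and 2165 counts and 1977, 2197 and 2052 counts. The groups were far apart relative to their spread, at 47.2 ± 0.561 and 56.6 ± 0.952 CPM (mean ± SD, n = 3). The log2 fold change was 0.26 ± 0.06, 95% interval 0.14 to 0.38 (adjusted p = 0.0204 in edgeR's test). Over all 13 alternative settings it ranged from 0.24 to 0.27, but did not pass without WT replicate 2 (adjusted p = 0.106), without KO replicate 1, 2 or 3 (0.116, 0.129 and 0.0884) and with the replicate number as a block (0.0523).

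The other condensin subunits did not pass. Of 8 condensin genes, with Ncapg, Ncapd3, Ncapg2 and Ncaph2 added to the 4 described here, all 8 were above 0, with a median of 0.14, and 1 was called higher. Over all tested genes 48.7% were fitted above 0 and 3.92% were called higher, and 79.2% of the 48 mitotic genes were fitted above 0. Without WT replicate 1, 7 of the 8 condensin genes were above 0: Smc4 was at -0.03 there, and Smc2 at 0.02 against 0.15 with that library. In that fit the median was 0.14 and 4 of the 8 were called higher, where 19.7% of all genes tested were called in either direction. None of the 8 was called without WT replicate 2 or without KO replicate 1, 2 or 3, where 1.94% to 2.42% of all genes tested were called. Smc4, an ATPase arm shared by condensin I and II, was at 135, 179 and 199 CPM in WT and 188, 183 and 184 in KO. WT replicate 1 was far below the other 5 libraries, which spread the WT group (171 ± 32.8 CPM) around the KO group (185 ± 2.94 CPM). In its partner Smc2, WT replicate 1 was again the lowest library, with 65.6, 83.7 and 90.0 CPM in WT and 88.5, 86.1 and 90.5 in KO. The groups overlapped, with KO replicate 3 just above the highest WT library. Ncapd2, a HEAT-repeat subunit of condensin I, was at 166 ± 13.5 and 181 ± 3.25 CPM, with WT replicate 3 the lowest. Top2a, the topoisomerase that untangles sister chromatids, was at 277, 297 and 306 CPM in WT and 323, 328 and 315 in KO. Every KO library was above every WT library, but the difference of 0.14 ± 0.05 did not pass (adjusted p = 0.136). Mki67, the gene of the proliferation marker Ki-67, was at 201, 247 and 263 CPM in WT and 217, 222 and 216 in KO. All 3 KO libraries fell within the WT range (-0.12 ± 0.08, adjusted p = 0.474).

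**Figure D2:**
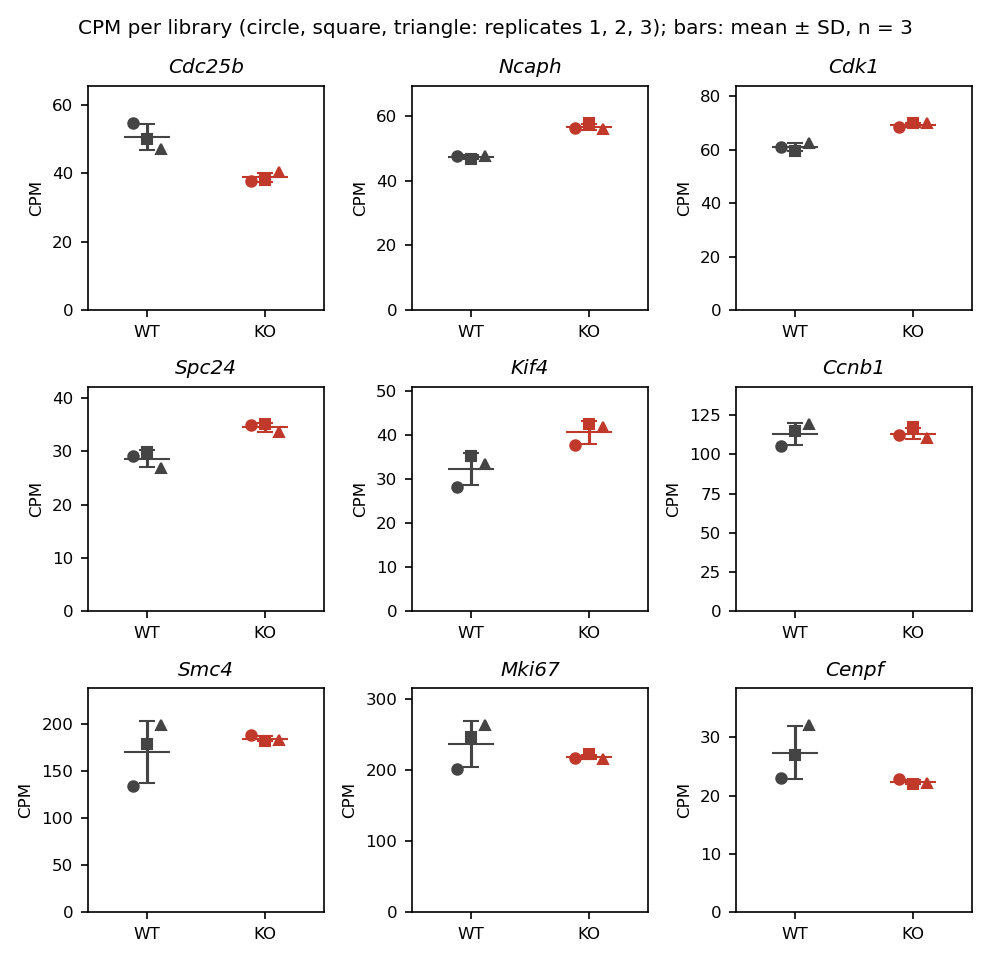
CPM of 9 genes in each library, by genotype label, with the mean ± SD of 3 libraries as bars and an axis from 0. Cdc25b and Ncaph are the genes called, Cdk1, Spc24, Kif4 and Cenpf are apart between groups without passing, and in Ccnb1, Smc4 and Mki67 the groups overlap, with WT replicate 1 (circle) the lowest of the WT libraries in these 3.

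Of 10 kinesin and spindle genes 1 had an unadjusted p under 0.05, against 21.1% of all tested genes, and none passed the threshold. That gene was Kif4, a chromosome-bound kinesin that works with condensin and with Prc1 on the central spindle. Its levels were 28.2, 35.1 and 33.4 CPM in WT, and 37.6, 42.3 and 41.7 in KO. The groups did not overlap, WT replicate 1 was the lowest, and the difference of 0.33 ± 0.09 did not pass (adjusted p = 0.052 in edgeR's test). Kif11 (Eg5), the motor that separates spindle poles, was at 85.0, 111 and 114 CPM in WT and 100, 109 and 106 in KO. WT replicate 1 was again the lowest, and the groups overlapped. Kif2c, which depolymerises microtubules at the kinetochore, was at 34.6 ± 1.79 and 34.5 ± 3.05 CPM. The central spindle motors Kif20a and Kif23 were at 36.8 ± 1.73 and 35.9 ± 2.93 CPM and at 42.4 ± 2.65 and 37.4 ± 6.04 CPM. KO replicate 1 was low for Kif23, at 30.9 CPM against 42.8 and 38.5 in the other KO libraries. Among spindle proteins, Tpx2, which activates Aurka, was at 103 ± 2.71 and 110 ± 3.40 CPM, Prc1 at 34.1 ± 1.22 and 32.5 ± 2.27, Nusap1 at 40.8 ± 3.52 and 43.3 ± 0.964, Hmmr at 44.8 ± 4.77 and 48.2 ± 1.12, and Ckap2 at 15.9 ± 1.61 and 16.2 ± 1.25. Each of these 5 had groups that overlapped.

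The 3 cytokinesis genes had fitted values above 0, and none passed. Racgap1, a subunit of centralspindlin, was at 93.3, 97.9 and 91.4 CPM in WT and 99.8, 108 and 108 in KO, and Anln, the scaffold of the contractile ring, at 18 ± 1.72 and 20.7 ± 1.04 CPM. Both had every KO library above every WT library, with 0.16 ± 0.06 (adjusted p = 0.114) and 0.20 ± 0.10 (adjusted p = 0.264). Ect2, which activates RhoA at the division plane, was at 37.5 ± 3.71 and 40.3 ± 0.945 CPM and overlapped.

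The transcription factors that drive this programme did not pass either. Foxm1, the forkhead factor of G2 genes, was at 44.9, 48.3 and 39.3 CPM in WT and 44.5, 46.1 and 45.1 in KO, the KO libraries lying within the WT range. Mybl2 (B-Myb), which joins MuvB in S phase, was at 35.5, 29.9 and 27.0 CPM in WT and 39.1, 33.9 and 37.8 in KO. WT replicate 1 was above the lowest KO library, and the difference of 0.26 ± 0.10 did not pass (adjusted p = 0.162).

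Across libraries the levels of the 48 genes varied by small amounts. Their median deviation from the mean of the 6 libraries was -0.09, -0.02 and -0.01 on the log2 scale in WT replicates 1, 2 and 3 and 0.04, 0.08 and 0.03 in the KO replicates, while the median over all tested genes stayed between -0.00 and 0.01. WT replicate 1 was the lowest of the 6 libraries for 19 of the 48 genes and KO replicate 2 the highest for 23. Both shares were larger than the 23.4% and 14% of all tested genes. The median SD of log2 CPM was 0.096 in WT and 0.047 in KO, against 0.144 and 0.089 over all tested genes. The centromere, condensin and cytokinesis groups had medians of -0.22, -0.16 and -0.22 in WT replicate 1. The kinesin and spindle group was at -0.12 there, checkpoint genes at -0.03, kinases at -0.02, cyclins at -0.01 and the 2 transcription factors at 0.04.

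The groups were apart, with every KO library on 1 side of every WT library, for 17 of the 48 genes. Over all tested genes 26.8% were apart. KO was above WT for 13 of the 48 genes, a larger share than the 14.4% of all tested genes. It was below for 4, namely Cdc25b, Ccnb2, Cenpa and Cenpf, a smaller share than the 12.4% of all tested genes.

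**Figure D3:**
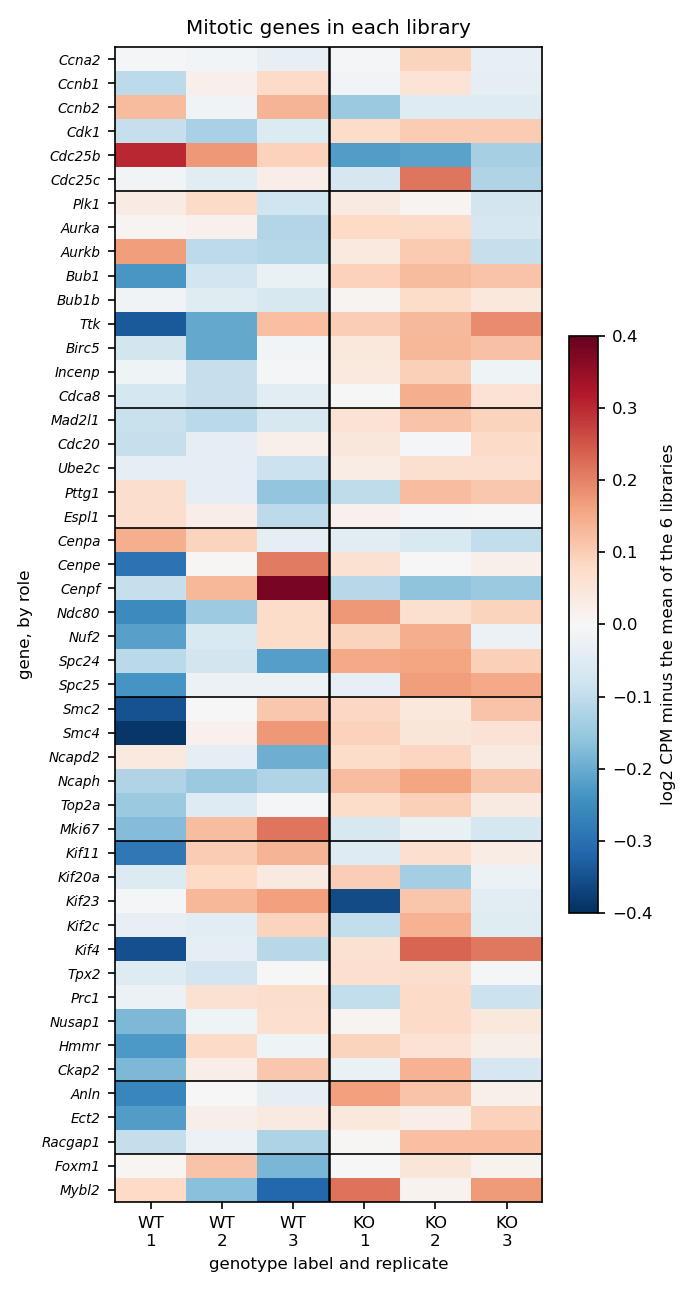
Each of the 48 genes (rows, by role) in each library (columns), as log2 CPM minus its mean over the 6 libraries, blue below and red above. WT replicate 1 holds most of the deep blue cells in the kinetochore, condensin and cytokinesis rows, and Cdc25b is red in all WT and blue in all KO libraries.

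The number of genes called depended on single libraries. Without WT replicate 1, 12 of the 48 passed, against 19.7% of all genes tested in that fit. Cdc25b, Cenpf and Mki67 were lower there, and Cdk1, Birc5, Mad2l1, Spc24, Ncapd2, Ncaph, Kif4, Racgap1 and Mybl2 higher. The fitted value of Mki67 became -0.22 (adjusted p = 1.27e-04) and that of Cenpf -0.40 (adjusted p = 6.32e-04). Without WT replicate 3, 5 passed (6.77% of all genes tested), with Ttk and Ndc80 joining Cdc25b, Ncaph and Kif4. None passed when WT replicate 2 or either of KO replicates 1 and 2 was left out (2.42%, 1.94% and 2.07% of all genes tested), and Cdc25b alone passed without KO replicate 3 (2.15%). Counts of 0 or 1 of 48 are near these shares. DESeq2 called 5 (Cdc25b, Ncaph, Cdk1, Spc24 and Kif4; 9.03% of all genes tested), and edgeR with no filter on low counts called 6 (Cdc25b, Ncaph, Spc24, Kif4, Cenpf and Mybl2; 6.01%). The median of the 48 genes stayed between 0.06 and 0.10 in every one of these fits.

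Further genes of the same machinery, taken from lists of other mitotic factors, were read in the same fit. Of 115 tested genes 5 were called higher (4.35%, near the 3.92% of all tested genes) and none lower (2.47% of all tested genes), with a median of 0.07. Without WT replicate 1, 22 were called higher and 5 lower, in a fit that called 19.7% of all genes tested. The calls numbered 1 without KO replicate 1 (1.94% of all genes tested) and 3 without KO replicate 2 (2.07%) or KO replicate 3 (2.15%). They numbered 11 with no filter on low counts (6.01%) and 10 with DESeq2 (9.03%). Kntc1, a subunit of the complex that brings dynein and the checkpoint to kinetochores, was at 35.8, 38.6 and 37.6 CPM in WT and 47.5, 49.7 and 54.7 in KO. All KO libraries were higher, and the difference of 0.44 ± 0.07 (adjusted p = 0.00437) held in all 6 fits that left out a library. Zwint, another outer kinetochore gene, rose by 0.27 ± 0.05 (adjusted p = 0.00968), Ube2s, which extends ubiquitin chains for the anaphase-promoting complex, by 0.27 ± 0.04 (0.00431), the spindle kinesin gene Kif15 by 0.32 ± 0.07 (0.0188), and Cks1b, a small partner of cyclin-dependent kinases, by 0.27 ± 0.05 (0.00583). Zwint lost its call without KO replicate 1 or 2, Ube2s without KO replicate 1, Cks1b without KO replicate 1 or 3, and Kif15 in 4 of the 6 fits that left out a library, those without WT replicate 2 or any KO replicate (adjusted p up to 0.128). None of 4 genes for the deposition of the centromeric histone was called, with 0.07 ± 0.05 for its chaperone Hjurp and 0.18 ± 0.08 for Mis18a. Neither was any of 9 MuvB and DREAM genes, among them Rbbp4, which is also a CAF-1 subunit (0.14 ± 0.05, adjusted p = 0.111).

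DNA replication genes, which are expressed earlier in the cycle, showed larger values in the same fit. Of 45 such genes 27 (60.0%) were called higher, against 3.92% of all tested genes, and none lower, with a median of 0.27. The count changed with the library left out. It was 12 without WT replicate 2, 10 without KO replicate 1 or KO replicate 3, and 11 without KO replicate 2. Without WT replicate 3 it was 28, and without WT replicate 1 it was 35. Of all genes tested in these fits 1.94% (without KO replicate 1) to 19.7% (without WT replicate 1) were called in either direction. Of the 27 genes, 10 were called in all 6 fits that left out a library, and the rest in 1 to 3 of them. The median stayed between 0.24 and 0.29 in these fits. Tyms (0.52 ± 0.07, adjusted p = 0.00154) and the helicase gene Mcm5 (0.43 ± 0.05, adjusted p = 3.62e-04) were among the 10. The median in the mitotic genes was 0.09 with 2 of 48 called, and no test of the difference between these lists was made. In the replication list the WT libraries deviated by -0.18, -0.13 and -0.14 and the KO libraries by 0.15, 0.15 and 0.14, a gap wider than in the medians of the mitotic genes given above.

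**Figure D4:**
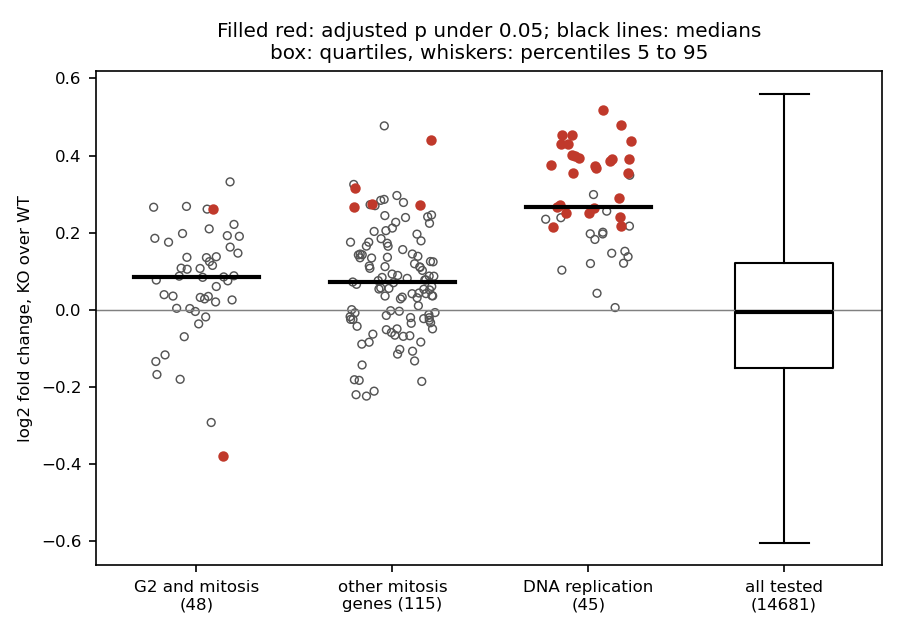
Log2 fold change (KO over WT) of each gene in the 48 mitotic genes, 115 other mitosis genes and 45 DNA replication genes, with medians of 0.09, 0.07 and 0.27 as black lines, beside a box of all 14681 tested genes. Red points had an adjusted p under 0.05, 2 in the first list, 5 in the second and 27 in the replication list.

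The promoter motifs were set beside the fold changes. Of the 39 genes with a promoter window, 27 held both motifs, with fitted values from -0.38 to 0.33, a median of 0.08 and 19 above 0. The 7 genes with neither motif, Birc5, Mad2l1, Mybl2, Ncaph, Nuf2, Nusap1 and Pttg1, had fitted values from 0.08 to 0.26 with a median of 0.17. The 3 genes with TTTGAA or TTCGAA alone had a median of 0.20, and the 2 with CCAAT alone a median of 0.02. These groups were formed after the values were seen, and their difference was not tested.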

How the data were processed

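RNA-seq of 6 libraries was analysed. The series has 7 other samples, of chromatin, not analysed here. The deposited values are raw counts; the authors counted exons of GENCODE vM33 genes with featureCounts 2.0.1, per the file headers. The headers set no strand, paired-end or multi-mapping option, so reads of a gene and its antisense neighbour cannot be told apart and near-identical copies lose reads. For the aligner version and genome build, the sources used here give nothing. Low counts were mostly even (65.6% to 67.7% of counts from 1 to 20), against 48.8% to 50.9% of counts from 1000, so depth in fragments is lower than in counts. The deposited column of WT replicate 2 is entered as other in the record of units kept here, but holds raw counts like the rest. Columns were matched to libraries through the commands in the header.

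Symbols were found for 51948 of 56941 gene IDs (91.2%). Where IDs shared a symbol, the one with most counts kept it. The comparison of KO with WT used edgeR 4.0.16 in R 4.3.3: default filter on low counts, TMM factors (0.984 to 1.016), robust quasi-likelihood F-test, adjustment by Benjamini and Hochberg over 14681 genes, threshold 0.05. The SE was obtained by dividing the size of the log2 fold change by the root of F. CPM use TMM library sizes, except the sums over cell type markers, which were scaled to the raw total counts. The test was checked on simulated counts. Alternatives were RLE and upper-quartile factors, no filter or at least 5 CPM in 3 libraries, DESeq2 1.42.0, limma-voom (limma 3.58.1), the replicate number as a block, and each library left out.

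The members and lists were chosen with earlier results of these data known. All 48 members could be named, as could called genes of the other lists or else their genes with the highest CPM. Exon lengths were not at hand, so levels are not compared between genes, and the promoters to print, planned by RPKM, were ranked by mean CPM. Promoter sequences are RefSeq's (GRCm38.p6), searched on both strands, and 39 of 48 members matched. Some marker results are not reported here.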

Additional observations from a re-analysis of the deposited data

How the results depend on the processing

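The replicate numbers in the labels did not pair the libraries: deviations of same-numbered libraries from their group means correlated at -0.040, -0.028 and 0.001. In the fit with a replicate block, 671 genes and 2 of the 48 mitotic genes passed, Cdc25b and, in place of Ncaph, Kif4 (adjusted p = 0.0347). With no filter on low counts 1568 genes and 6 of the 48 passed, and with DESeq2 5 of the 48 (1325 of all genes). Leaving out 1 library in turn gave 295 to 2961 genes and 0 to 12 of the 48, a median log2 fold change from 0.06 to 0.10, and 45 to 48 genes with the 95% interval inside 1.5-fold, the lowest of these without KO replicate 1. The other settings (RLE or upper-quartile factors, the stricter filter, limma-voom) gave 821 to 943 genes and 2 or 3 of the 48. None of the 2 called mitotic genes changed sign in any of the 13 alternatives, and Cdc25b was called in 10 of them and Ncaph in 8. The cause of the changes with a setting was not tested. An interval inside 1.5-fold was found for 63.4% of all tested genes, for 95.9% of those at or above the mean level of the lowest mitotic gene, and for all 48 here. Depth was not varied.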

Other observations

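Some regulators that act before mitosis passed the test, with larger fold changes than any of the 48 mitotic genes for Cdkn2a, Cdkn2b, Gadd45g, Ccne1 and E2f1; no test of that difference was made. Of 14 genes of Cdk inhibitors and the damage checkpoint 3 were called higher (21.4%, against 3.92% of all tested genes). In the same list 1 was called lower (7.14%, against 2.47%), and the median log2 fold change was 0.11. Cdkn2a, which encodes p16INK4a and ARF, went from 10.9 ± 1.13 CPM in WT to 21.3 ± 1.52 CPM in KO (mean ± SD, n = 3; 0.97 ± 0.11, adjusted p = 3.62e-04 in edgeR's test). Its neighbour Cdkn2b, which encodes p15INK4b, went from 3.12 ± 0.983 to 8.14 ± 0.214 CPM (1.38 ± 0.21, adjusted p = 0.00289). Both were called in all 6 fits that left out a library. Gadd45g, a stress-induced gene, was called higher (0.77 ± 0.19, adjusted p = 0.0333) and Cdkn1b, which encodes p27, lower (-0.30 ± 0.08, adjusted p = 0.0409), but these calls held in 1 and 2 of those 6 fits. Cdkn1a, which encodes p21, was at 468 ± 34.9 and 502 ± 6.08 CPM and was not called.

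Of 15 regulators of G1 and S phase, Ccne1 (0.55 ± 0.09, adjusted p = 0.00439) and E2f1 (0.54 ± 0.11, adjusted p = 0.014) were called higher and Ccnd2, a D-type cyclin gene, lower (-0.26 ± 0.05, adjusted p = 0.00916). The genes called higher were 13.3% of the 15, against 3.92% of all tested genes, and the gene called lower 6.67%, against 2.47%. Ccne1 was called in all 6 fits that left out a library, E2f1 in 4 and Ccnd2 in 2. Cyclin E and E2F1 act at the entry into S phase, ahead of the mitotic genes described above.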
